A study of Mus musculus with 4 samples.

Results

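Hspa5, Hsp90b1, Calr, Canx, P4hb, Pdia3, Pdia4, Pdia6 and Txndc5 encode chaperones and disulfide isomerases of the endoplasmic reticulum (ER). They were picked by name, as the core folding machinery of the compartment in which selenoprotein T resides. Earlier results of these data were known when they were picked. Of these 9 genes, 8 had a probe under their own symbol, 10 probes in all. No probe carried the name of Calr (calreticulin), so it was not analysed here. Pdia6 was valued with the siSelT-5 construct alone, so 7 of the 9 were tested, among 4754 genes tested of 12347 with a probe of a single gene name. The RNA came from NIH 3T3 cells, a mouse embryonic fibroblast line, and each of 4 two-colour arrays compared RNA of cells with a Selt knockdown construct, in Cy5, with RNA of cells with the empty vector pU6-m3, in Cy3. Construct siSelT-1 targets nucleotides 205 to 224 of the Selt mRNA and siSelT-5 targets nucleotides 971 to 989, and each has 2 arrays with RNA from separate cultures. All cells, vector controls included, were kept under 150 µg/ml hygromycin B in medium with 10% serum and 100 nM sodium selenite. The labels do not say whether a line was a clone or a pool, or whether arrays shared a vector culture.

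Selenoprotein T is a selenocysteine-containing oxidoreductase of the ER membrane with a thioredoxin-like fold. Proteins made on the ER are held in a foldable state by Hsp70 and Hsp90 family chaperones, bound through their sugar chains by the lectins calnexin and calreticulin, and given disulfide bonds by the protein disulfide isomerases, whose catalytic domains share the thioredoxin fold. When unfolded protein builds up in the ER, the sensors ATF6, IRE1 and PERK are known to raise transcription of many of these genes. The question put to the arrays was whether the transcripts of this folding machinery shift when Selt is targeted.

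Values are log2 ratios of knockdown over vector, so 0 means equal signal and 1 means a 2-fold higher signal in knockdown cells. Selt itself had no named probe and was not analysed here, which leaves the knockdown unchecked. Of the 22534 probes, 34.1% and 41.0% had a value with siSelT-1, and 89.9% and 81.5% with siSelT-5. The median of the 7038 probes valued on all 4 arrays lay above 0 on each array, at 0.19 and 0.09 for siSelT-1 and at 0.43 and 0.36 for siSelT-5, and a centred ratio below has that median subtracted. Over every probe with a value, the medians were 0.18 and 0.06 for siSelT-1 and -0.22 and -0.19 for siSelT-5. The siSelT-5 medians above 0 are thus those of the probes that also have siSelT-1 values, from which all genes tested come. Ratios carry no level. Of 12 fibroblast markers 8 were tested over both constructs, of which 4 rose (Pdgfra, Vim, Postn and Thy1, from 0.37 to 0.88) and 3 fell (Fn1, Dcn and Col3a1, from -0.61 to -0.37), while centred 2 rose and 4 fell. Postn stood at -0.78 with siSelT-1 and 1.64 with siSelT-5 and passed in each, and Dcn stood at -0.86 with siSelT-1, where it passed, and 0.12 with siSelT-5. The 3 endothelial markers tested of 5 rose (Cd34, Pecam1 and Tie1, 0.70 to 0.72), as did the 2 adipocyte markers tested of 5 (Scd1 and Lpl, 0.71 and 0.64), and these 5 also passed centred. The 1 macrophage marker tested of 5, Lyz2, stood at -0.20 and did not pass as deposited but passed as lower centred, at -0.47, and 0 of 4 epithelial markers could be tested. The part of these markers in the results was not tested, and in bulk RNA fewer cells of a type and less RNA per cell cannot be told apart.

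The promoters of these genes are known for the ER stress response element, the letters CCAAT and CCACG parted by 9 bases, at which NF-Y and ATF6 bind. RefSeq promoter windows of GRCm38.p6, from 250 bases before to 50 after the annotated start, were available for all 9 genes. A full match on either strand occurred in 0.119% of all 32851 windows and in 0.119% of the 5056 windows of genes tested. It was held by Hspa5, Hsp90b1 (at 2 places), Canx, Calr and Pdia6. These matches are shown because they are the best known shared regulatory letters of the group; they are read 5′ to 3′ on the strand that holds CCAAT, with the motif letters in capitals.
Hspa5, chr2:34772025-34772043: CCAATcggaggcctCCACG
Calr, chr8:84847075-84847093: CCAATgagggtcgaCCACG
Hsp90b1, chr10:86705638-86705656: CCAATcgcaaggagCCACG
Hsp90b1, chr10:86705533-86705551: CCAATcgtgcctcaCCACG
Canx, chr11:50325800-50325818: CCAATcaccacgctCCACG
Pdia6, chr12:17266491-17266509: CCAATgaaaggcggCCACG

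Pdia3 and Pdia4 had no full match and held one in which a single letter of CCACG differs. This looser pattern was found in 0.998% of all windows and in 1.58% of those of genes tested. The differing letter is in lower case. Hsp90b1 also held a near match beside its full ones.
Pdia3, chr2:121413873-121413891: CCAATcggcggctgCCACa
Pdia4, chr6:47813602-47813620: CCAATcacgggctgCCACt

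P4hb and Txndc5 had neither form at the annotated start. The second form of the element, ATTGG and CCACG parted by 1 base, occurred in 0.0365% of all windows and in 0 of the members' windows. Its share among windows of genes tested was 0.138%. The letters TGACGTGG, known as the unfolded protein response element, occurred in 0.676% of all windows and in 0.949% of those of genes tested. Among the members they occurred in a window of an alternative Txndc5 start. The motifs overlap, since ATTGG and CGTGG are CCAAT and CCACG read on the other strand. A match is a description of letters and not a binding site. The whole windows of the members with the highest ratios (Pdia4, P4hb), of Hspa5 and of Hsp90b1, which had 2 matches and a low ratio, are given 5′ to 3′ on the gene's strand with full matches in capitals.
Pdia4, chr6:47813463-47813762, minus strand: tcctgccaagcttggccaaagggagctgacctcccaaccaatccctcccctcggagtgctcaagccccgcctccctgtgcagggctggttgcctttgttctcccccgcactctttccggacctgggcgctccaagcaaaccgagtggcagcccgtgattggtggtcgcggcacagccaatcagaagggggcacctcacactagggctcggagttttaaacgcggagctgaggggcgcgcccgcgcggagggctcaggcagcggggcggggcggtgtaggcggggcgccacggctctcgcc
P4hb, chr11:120573204-120573503, minus strand: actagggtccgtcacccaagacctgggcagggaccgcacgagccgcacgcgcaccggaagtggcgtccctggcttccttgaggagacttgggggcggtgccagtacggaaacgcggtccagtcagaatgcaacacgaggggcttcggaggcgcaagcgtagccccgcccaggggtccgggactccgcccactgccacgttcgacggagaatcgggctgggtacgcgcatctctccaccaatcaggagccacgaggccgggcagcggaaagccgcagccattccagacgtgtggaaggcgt
Hspa5, chr2:34771840-34772139, plus strand: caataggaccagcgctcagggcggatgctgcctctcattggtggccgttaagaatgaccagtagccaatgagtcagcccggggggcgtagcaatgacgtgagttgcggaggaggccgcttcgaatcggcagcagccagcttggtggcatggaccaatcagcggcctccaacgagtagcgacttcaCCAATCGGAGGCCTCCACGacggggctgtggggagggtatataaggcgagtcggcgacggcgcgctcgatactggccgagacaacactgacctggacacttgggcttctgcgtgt
Hsp90b1, chr10:86705395-86705694, minus strand: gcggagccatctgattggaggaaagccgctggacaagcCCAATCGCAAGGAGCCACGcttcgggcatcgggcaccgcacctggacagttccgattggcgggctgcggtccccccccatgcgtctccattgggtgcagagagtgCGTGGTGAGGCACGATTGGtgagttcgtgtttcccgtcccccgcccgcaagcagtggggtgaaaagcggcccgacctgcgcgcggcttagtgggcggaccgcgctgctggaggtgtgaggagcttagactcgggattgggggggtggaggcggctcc

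Among the chaperones, Hspa5 rose. It encodes BiP, the ER's Hsp70 chaperone and the partner that keeps the stress sensors inactive. Its log2 ratios were 0.52 and 0.43 with siSelT-1, while siSelT-5 gave 1.12 and 0.93. All 4 values lay above 0 and above the median of the genes tested on their array, and the siSelT-5 values lay above the siSelT-1 values without overlap. Over both constructs the ratio was 0.75 ± 0.33 (SD, n = 4), or 1.68-fold, with a standard error of 0.08 and an adjusted p = 0.00195 in limma. Centred, it was 0.48 (limma, adjusted p = 0.00739). The standard error and p over both constructs, here and below, rest on the spread between replicates of a construct. They leave out the gap between the constructs.

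Hsp90b1, the gene of GRP94, the ER's Hsp90 chaperone for integrins and Toll-like receptors, did not follow Hspa5. Its log2 ratios were 0.09 and 0.03 with siSelT-1 and 0.34 and 0.43 with siSelT-5. All 4 were above 0, but on 3 of the 4 arrays the value lay below the median of the genes tested. Over both constructs it stood at 0.22 ± 0.19 (SD, n = 4) and missed the threshold (limma, adjusted p = 0.0532), and the centred value was -0.05 (limma, adjusted p = 0.629). For siSelT-5 alone Hsp90b1 passed as deposited, at 0.38 (limma, adjusted p = 0.0283), but centring turned that value to -0.01 (limma, adjusted p = 0.948).

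Canx, the membrane-bound lectin chaperone calnexin, was the lowest of the 7. The mean of its 2 probes was -0.0014 and 0.0306 with siSelT-1 and 0.12 and 0.51 with siSelT-5. The siSelT-5 replicates differed by 0.40, the siSelT-1 values lay close to 0, and the probes disagreed. One Canx probe gave 0.14 and 0.35 with siSelT-1 and 0.19 and 0.42 with siSelT-5. The other Canx probe gave -0.15 and -0.29 with siSelT-1 and 0.05 and 0.61 with siSelT-5. Canx as a gene did not pass over both constructs, at 0.17 ± 0.24 (SD, n = 4; limma, adjusted p = 0.191), or centred, at -0.10 (limma, adjusted p = 0.448), whereas the first probe fitted by itself passed as deposited at 0.28 (limma, adjusted p = 0.0477).

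**Figure D1:**
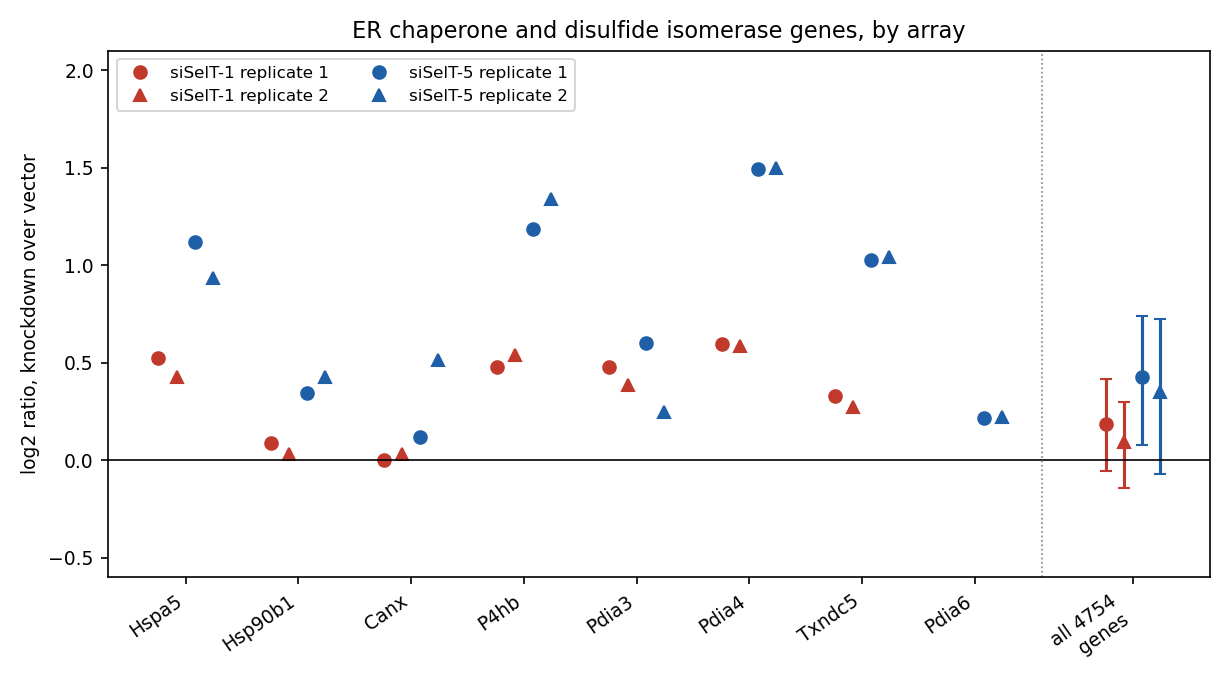
Log2 ratio of knockdown over vector (y axis) on each of the 4 arrays for the 8 measured members (x axis), with the median and interquartile range of the 4754 genes tested at the right. Canx and Txndc5 are means of 2 probes, Pdia6 has no siSelT-1 value, and the siSelT-5 points of Pdia4, P4hb, Txndc5 and Hspa5 stand highest, from 0.93 to 1.50.

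The protein disulfide isomerase genes Pdia4 and P4hb held the highest ratios of the group over both constructs. Hspa5, at 0.75, lay above the isomerase genes Txndc5 and Pdia3, at 0.67 and 0.43. Pdia4 encodes ERp72, an isomerase with several thioredoxin-like domains. Its log2 ratios were 0.60 and 0.59 with siSelT-1 and 1.49 and 1.50 with siSelT-5, so replicates differed by 0.0097 and 0.0046. Pdia4 rose to 1.04 ± 0.52 (SD, n = 4) over both constructs, or 2.06-fold, with a standard error of 0.07 (limma, adjusted p = 0.00161). The SD over 4 arrays reflects the gap between the constructs rather than between replicates. Its mean lay above that of 98.5% of the genes tested, and centred it stood at 0.78 (limma, adjusted p = 0.0043).

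P4hb encodes the founding protein disulfide isomerase, which is also the beta subunit of the collagen prolyl 4-hydroxylase of fibroblasts. It had log2 ratios of 0.48 and 0.54 with siSelT-1 and of 1.19 and 1.34 with siSelT-5. Both siSelT-5 values lay above both siSelT-1 values, with 0.65 between the nearest of them. P4hb rose to 0.89 ± 0.44 (SD, n = 4), 1.85-fold, over both constructs (limma, adjusted p = 0.00161), above 96.3% of the genes tested, and to 0.62 centred (limma, adjusted p = 0.00601).

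Txndc5 encodes ERp46, an isomerase that is known for rapid introduction of disulfides. The mean of its 2 probes was 0.33 and 0.27 with siSelT-1 and 1.03 and 1.04 with siSelT-5. Txndc5 rose to 0.67 ± 0.42 (SD, n = 4), 1.59-fold, over both constructs (limma, adjusted p = 0.00206), and to 0.40 centred (limma, adjusted p = 0.011). Its probes differed for siSelT-1, where the higher probe gave 0.68 and 0.53 and the lower one -0.02 and 0.02. With siSelT-5 the higher Txndc5 probe gave 1.17 and 1.25 and the lower one 0.89 and 0.83. Each Txndc5 probe by itself passed over both constructs (limma, adjusted p = 0.00184 and 0.0073), and for siSelT-1 alone the higher probe passed (limma, adjusted p = 0.039) and the lower one did not (limma, adjusted p = 0.995).

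Pdia3 encodes ERp57, the isomerase that works with calnexin and calreticulin on glycoproteins. Its log2 ratios were 0.48 and 0.39 with siSelT-1 and 0.60 and 0.25 with siSelT-5. It was the only one of the 7 whose siSelT-5 values straddled its siSelT-1 values, and its siSelT-5 replicates differed by 0.35. Pdia3 rose to 0.43 ± 0.15 (SD, n = 4) as deposited (limma, adjusted p = 0.0123) but did not pass centred, at 0.16 (limma, adjusted p = 0.164).

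Pdia6, the gene of the isomerase P5, was measured with siSelT-5 alone, at 0.21 and 0.22 (mean 0.22 ± 0.01, SD, n = 2), and it entered no test. These values lay 0.21 and 0.14 below the medians of the shared probes. They nonetheless stood high among the 7460 probes valued on both siSelT-5 arrays and on no siSelT-1 array, whose medians were -0.605 and -0.631. The Pdia6 mean exceeded 90.1% of the means of those probes. Since siSelT-5 ratios differed this much between probes with and without a siSelT-1 value, the ratio of Pdia6 is not set against those of the other members.

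**Figure D2:**
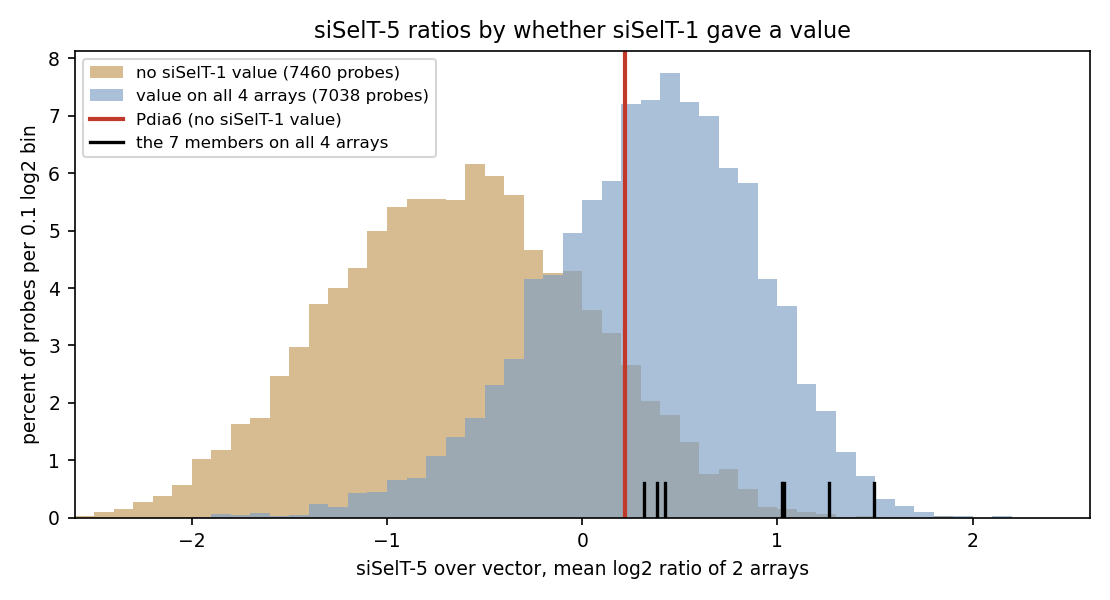
Distribution of the mean siSelT-5 log2 ratio (x axis) over probes without a siSelT-1 value and over probes with a value on all 4 arrays, as percent of the probes of each kind (y axis). Pdia6, at 0.22, lies in the upper tail of its own kind of probe and below the middle of the other kind; the short black lines mark the 7 tested members.

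Taking both constructs together, 5 of the 7 members tested rose and 0 fell, against a background of 45.7% of all genes higher and 8.04% lower (limma, adjusted p under 0.05). Hspa5, P4hb, Pdia3, Pdia4 and Txndc5 passed, and Hsp90b1 and Canx did not. The members were chosen with earlier results of these data known. The median ratio of the 7 was 0.67, beside 0.25 for all genes tested. Centred, Hspa5, P4hb, Pdia4 and Txndc5 passed as higher, 4 of 7 against a background of 20.5%, and the medians were 0.40 and -0.02. Of the 7, 6 lay above 0 on all 4 arrays, against 44.9% of genes, and 4 lay above the shared median on all 4 arrays, against 25.2% of genes. Without siSelT-1 replicate 1, 0 of the 7 passed in limma, with 5 at an unadjusted p under 0.05, as did 0 of all genes with 1846. Without siSelT-1 replicate 2 the 4 genes that pass centred also passed, as higher, with 17% of all genes.

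siSelT-1 against vector asks what the construct at nucleotides 205 to 224 changed by itself. P4hb, at 0.51 ± 0.04 (SD, n = 2), and Pdia4, at 0.59 ± 0.01, rose (limma, adjusted p = 0.043 and 0.0338). That is 2 of 7, against 10.3% of all genes higher. Hspa5, at 0.47, was next to the threshold (limma, adjusted p = 0.0501), and Pdia3 (0.43) and Txndc5 (0.30) did not pass (limma, adjusted p = 0.0801 and 0.11). Hsp90b1 and Canx stood at 0.06 and 0.01 (limma, adjusted p = 0.74 and 0.952). The members' median was 0.43, beside 0.14 for all genes. Centred, 0 of 7 passed in limma, with 4 at an unadjusted p under 0.05, and Pdia4 at 0.45 came nearest (limma, adjusted p = 0.0526), against a background of 3.83% higher. Without siSelT-1 replicate 1 or 2, 0 of 7 passed in limma, with 1 at an unadjusted p under 0.05 each time. Without either siSelT-5 array, which leaves the spread to the siSelT-1 replicates, 5 of 7 passed as higher, and the share of all genes that did was 32.4%.

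siSelT-5 against vector asks the same of the construct at nucleotides 971 to 989. Here 6 of 7 rose and 0 fell, against a background of 47.6% of all genes higher and 6.29% lower. Pdia4 stood at 1.50 ± 0.0033 (SD, n = 2), 2.82-fold, P4hb at 1.26 ± 0.11, Txndc5 at 1.03 ± 0.01 and Hspa5 at 1.02 ± 0.13 (limma, adjusted p 0.00202 to 0.00228). These 4 ratios lay above those of 91.6% to 99.2% of the genes tested. Pdia3, at 0.42 ± 0.25 (SD, n = 2), and Hsp90b1, at 0.38 ± 0.06, passed nearer the threshold (limma, adjusted p = 0.0388 and 0.0283), and Canx, at 0.32 ± 0.28, did not (limma, adjusted p = 0.0963). The median was 1.02, beside 0.37 for all genes. Centred, Pdia4 (1.10), P4hb (0.87), Txndc5 (0.64) and Hspa5 (0.63) passed, 4 of 7 against a background of 19.2% higher, while Pdia3 (0.03), Hsp90b1 (-0.01) and Canx (-0.08) lay at the shared median. Without either siSelT-1 array these 4 of 7 passed as deposited, with 31% of all genes higher. With siSelT-5, then, Pdia4, P4hb, Txndc5 and Hspa5 lay high among all genes, and Pdia3, Hsp90b1 and Canx lay near their middle, at the 54.1, 51.0 and 45.5 percentiles. With siSelT-1 the order differed, and Pdia3 stood at the 82.7 percentile and Txndc5 at the 70.0.

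**Figure D3:**
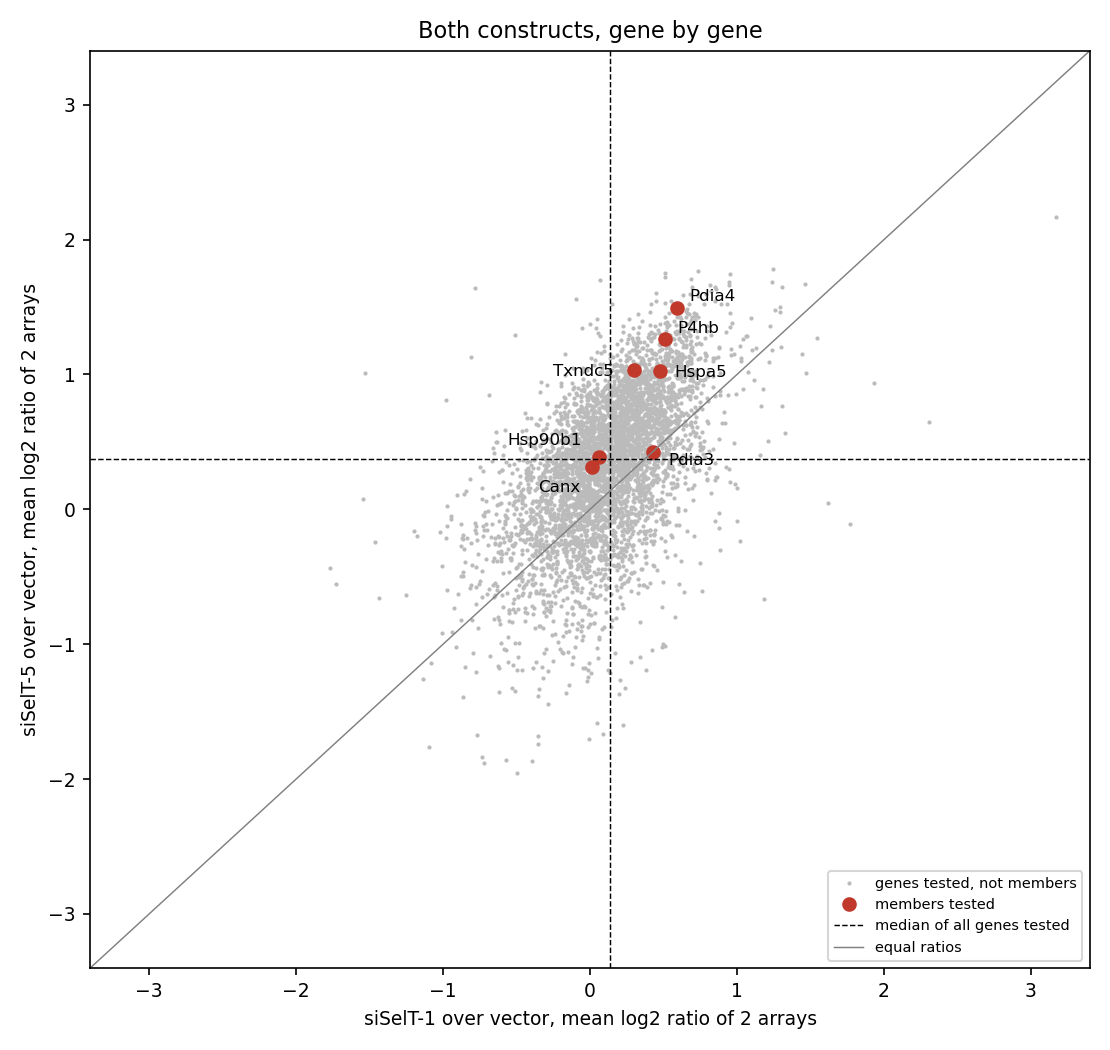
Mean log2 ratio with siSelT-1 (x axis) and with siSelT-5 (y axis) of the 4754 genes tested, members in red; dashed lines mark the medians of all genes, 0.14 and 0.37, and the grey line equal ratios. Pdia4, P4hb, Txndc5 and Hspa5 lie high above the line of equal ratios, Pdia3 lies on it, and Hsp90b1 and Canx lie close to the crossing of the medians.

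The direct comparison of the constructs asks whether they differ for these genes, and a dye effect common to the arrays cancels in it. The ratio of siSelT-1 minus that of siSelT-5 was -0.90 for Pdia4 (95% interval -1.27 to -0.53), -0.76 for P4hb (-1.15 to -0.36), -0.73 for Txndc5 (-1.11 to -0.36) and -0.55 for Hspa5 (-0.95 to -0.15). None of the 7 passed in limma (adjusted p 0.0543 to 0.978), 4 had an unadjusted p under 0.05, and of all 4754 genes 3 passed, or 0.0631%. Hsp90b1 stood at -0.33 (-0.70 to 0.05), Canx at -0.30 (-0.78 to 0.17) and Pdia3 at 0.01 (-0.45 to 0.47). Both siSelT-5 arrays lay above both siSelT-1 arrays in 6 of 7 members, against 52.6% of genes, and centred in 4 of 7 (Hspa5, P4hb, Pdia4 and Txndc5), against 32%. The median of all genes was itself 0.26 higher with siSelT-5. Centred, the differences were -0.65 for Pdia4, -0.50 for P4hb, -0.48 for Txndc5 and -0.30 for Hspa5, with 0 of 7 passed in limma, 3 at an unadjusted p under 0.05, and again 0.0631% of all genes. Without either siSelT-5 array 4 of 7 passed as lower with siSelT-1, P4hb, Pdia4 and Txndc5 both times, with Canx without siSelT-5 replicate 1 and Hspa5 without siSelT-5 replicate 2. In these fits 28% and 31.4% of all genes passed as lower.

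**Figure D4:**
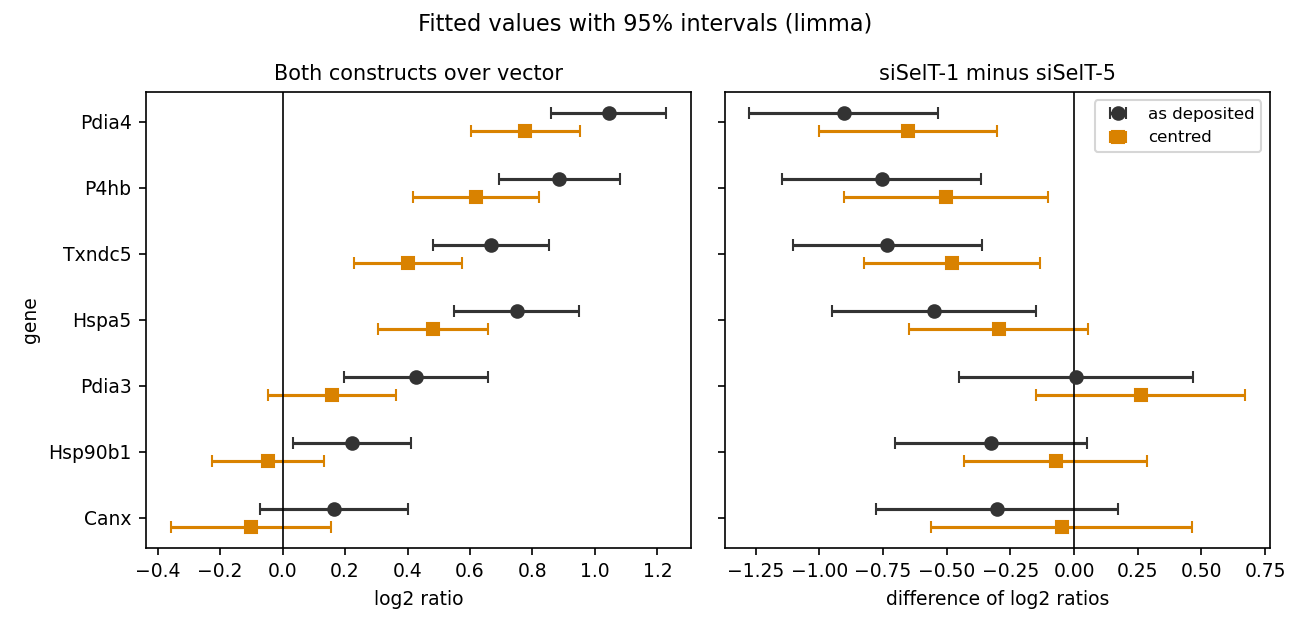
Fitted log2 ratio over both constructs (left) and fitted difference of siSelT-1 minus siSelT-5 (right) for the 7 members tested, with 95% intervals of the limma fit that are not adjusted for multiple tests; dark points are as deposited and orange points centred. The left intervals of Pdia4, P4hb, Txndc5 and Hspa5 stay above 0 on both scales. Those of Pdia3 and Hsp90b1 include 0 when centred only, and that of Canx includes 0 on both scales.

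The members did not share a single profile. The mean profile of the 7 was 0.36 and 0.32 with siSelT-1 and 0.84 and 0.86 with siSelT-5. Txndc5 lay nearest to it, at a Euclidean distance of 0.27 over the 4 arrays, and Pdia4 and Canx lay farthest, at 0.98 and 0.92 on opposite sides. Of the other genes tested the nearest to this mean profile were Creb3, which encodes a transcription factor anchored in the ER membrane (0.0551), the ribonuclease inhibitor gene Rnh1 (0.0576), Gtpbp6 (0.0824), Rnaset2b (0.0838) and the uridylyltransferase gene Tut7 (0.0913). Members with and without the full promoter element overlapped in ratio. The tested members with a full element stood at 0.75 (Hspa5), 0.22 (Hsp90b1) and 0.17 (Canx) over both constructs, and those without at 1.04 (Pdia4), 0.89 (P4hb), 0.67 (Txndc5) and 0.43 (Pdia3). Full matches occurred in windows of 3 further genes tested, with Syvn1, an ER ubiquitin ligase gene, at 0.50, Creld2 at 0.22 and Hnrnpa3 at 0.01.

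Of 43 genes outside the 9 that 4 lists hold as folding genes of the ER, 19 rose and 1 fell as deposited (median 0.28). Centred, 10 rose and 7 fell (median 0.01). Among all genes 45.7% were higher and 8.04% lower, and 20.5% and 21.9% centred. With siSelT-1 alone 5 of the 43 rose and 0 fell as deposited, beside 10.3% higher and 3.37% lower among all genes. With siSelT-5 alone 21 rose and 1 fell, beside 47.6% and 6.29%. Values in the lists below are over both constructs unless a construct is named. Of 18 genes listed as other isomerase-like and ER thiol oxidoreductase genes 7 rose and 1 fell (median 0.21), and centred 4 rose and 5 fell (median -0.05). Erp29, a folding factor with an isomerase-like domain, rose to 0.94 ± 0.42 (SD, n = 4), and the peroxiredoxin gene Prdx4 to 0.83 ± 0.17. Txndc12 (0.86) and Vkorc1 (0.83), the vitamin K epoxide reductase gene, also rose, and the 1 that fell, named after its values were seen, was Txndc11 at -0.45. Of 15 other ER chaperone genes 5 rose and 0 fell (median 0.23), and centred 3 rose and 2 fell (median -0.04). The 2 that fell centred, named after their values were seen, were Hyou1 (-0.33) and Tor1a (-0.32). Those that rose as deposited were Cnpy2 (0.83 ± 0.32), the collagen chaperone gene Serpinh1 (0.70 ± 0.33), Sec63 (0.58) and Sdf2 (0.45), and beyond the naming rule Sil1 (0.41). Sdf2 stood at 0.04 with siSelT-1, where it did not pass, and at 0.85 with siSelT-5, where it did.

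Of 6 ER prolyl isomerase genes 5 rose (median 0.55), 3 of them centred as well (median 0.29), with the cyclophilin B gene Ppib at 0.76 ± 0.20 (SD, n = 4) and Fkbp9 at 0.72 ± 0.40, Fkbp2 at 0.65 and Ppic at 0.45, and beyond the naming rule Fkbp7 at 0.29. Ppic stood at 0.05 with siSelT-1, where it did not pass, and at 0.85 with siSelT-5, where it did. Of 4 genes listed as ER calcium-binding proteins of other families Rcn3 (0.47) and Nucb1 (0.36) rose, and Nucb2 (0.32) and Calu (0.10) did not pass (median 0.34). Centred, 0 of 4 passed in limma (median 0.07), with 0 at an unadjusted p under 0.05. Nucb1 stood at 0.04 with siSelT-1, where it did not pass, and at 0.68 with siSelT-5, where it did. Of 10 genes of the glycan cycle, in which calnexin acts, 5 rose (median 0.25), and centred 3 rose and 1 fell (median -0.02). Uggt1, the glucosyltransferase that returns unfolded glycoproteins to calnexin, stood at 0.76 ± 0.52, the glucosidase II genes Prkcsh and Ganab at 0.71 and 0.46, and Edem2 at 0.58, and beyond the naming rule Lman1 at 0.25. The 1 that fell centred, named after its values were seen, was Edem1 at -0.38. With siSelT-1 alone none of these 10 passed as deposited, with Uggt1 at 0.32. With siSelT-5 alone 6 passed as higher, with Uggt1 at 1.21, beside 47.6% of all genes. Of 8 sensor and transcription factor genes of the unfolded protein response 4 rose (median 0.15), and centred 3 rose and 1 fell (median -0.12), with Atf4 at 0.69 ± 0.53, Atf6b at 0.58, Ddit3, the gene of CHOP, at 0.55 and Creb3l2 at 0.24, which turned to -0.03 centred. With siSelT-1 these stood at 0.24 (Atf4), 0.26 (Atf6b), 0.22 (Ddit3) and -0.01 (Creb3l2), and none of them passed. With siSelT-5 they stood at 1.14, 0.89, 0.89 and 0.50, and each passed as higher. Trib3 (0.05), Herpud1 (-0.01), Creb3l1 (-0.01) and Mbtps1 (-0.0005), named after their values were seen, did not pass as deposited. Creb3l1 was the 1 that fell centred, at -0.27. Beside the counts over both constructs, 45.7% of all genes passed as higher and 8.04% as lower, and 20.5% and 21.9% did centred.

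Of 18 genes of ER-associated degradation 7 rose and 3 fell (median 0.19), and centred 3 rose and 5 fell (median -0.08), with Vcp, the ATPase that extracts proteins from the ER, at 0.96 ± 0.53 (SD, n = 4), Rnf5 at 0.64, Derl1 at 0.60 and the ubiquitin conjugase gene Ube2j1 at -0.62 ± 0.16. The other 2 that fell, named after their values were seen, were Ubxn4 (-0.37) and Ufd1 (-0.34). Of 19 translocon and signal peptidase genes 10 rose (median 0.31), and centred 6 rose and 3 fell (median 0.04), with Sec61g at 0.98 ± 0.40, Ssr3 at 0.74, Ssr1 at 0.69 and Srp14 at 0.67. All 6 measured oligosaccharyltransferase genes rose (median 0.61, centred 0.35, where 4 passed), led by Krtcap2 at 0.87 and Stt3b at 0.79, with Ddost at 0.63 and Ostc at 0.59. With siSelT-1 alone 1 of these 6 and 2 of the 19 translocon genes passed as higher, beside 10.3% of all genes. With siSelT-5 alone 6 and 10 did, beside 47.6%. Of 26 cytosolic and mitochondrial chaperone genes 18 rose and 1 fell (median 0.46), and centred 10 rose and 1 fell (median 0.20), with the chaperonin genes Tcp1 at 0.87, Cct8 at 0.84 and Hspd1 at 0.78, and Hspe1 at 0.72, while the 1 that fell, named after its values were seen, was Hsp90aa1 at -0.39. The members' median of 0.67 stood beside these values. No test of a list was made, so it is not shown to differ from them. The counts over both constructs stand beside 45.7% of all genes higher and 8.04% lower, and 20.5% and 21.9% centred.

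**Figure D5:**
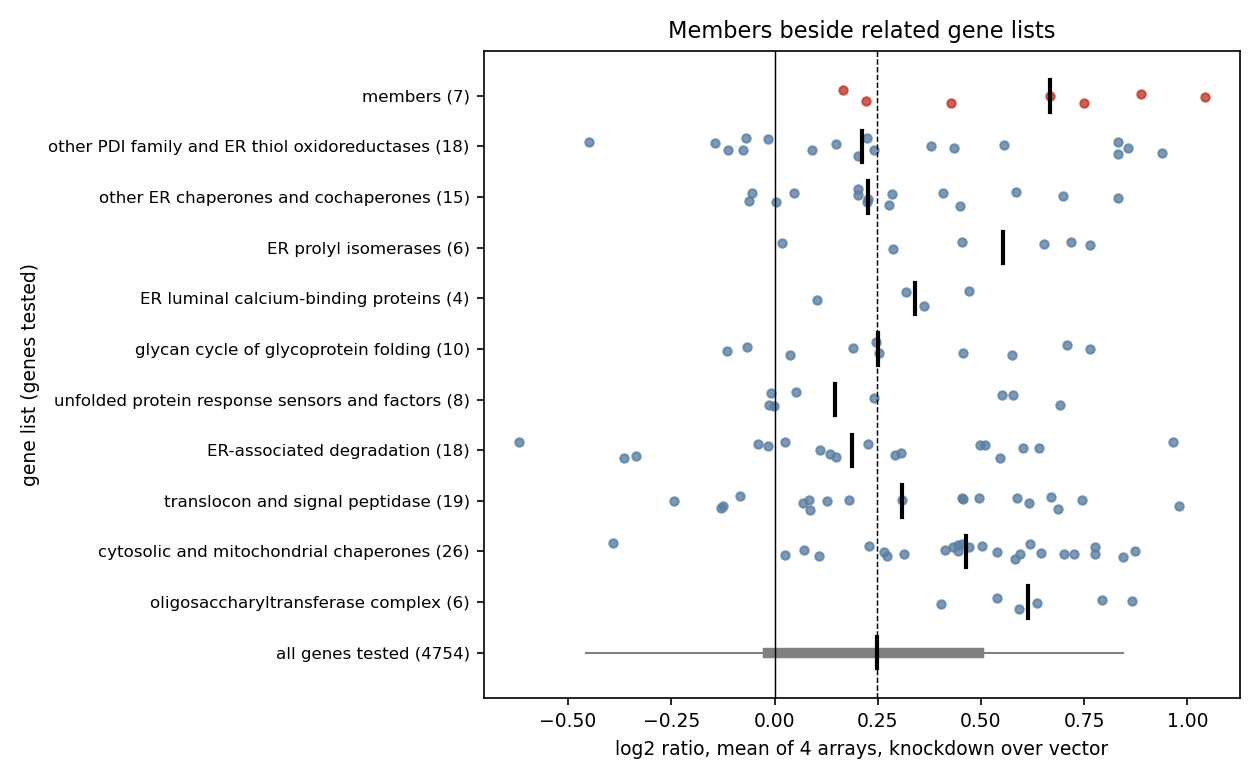
Mean log2 ratio of the 4 arrays, knockdown over vector (x axis), for each tested gene of the members, in red, and of 10 related lists, in blue (y axis, number of genes in brackets). Thick black strokes are medians, the grey bar holds the middle 50% of all genes and the thin grey line the middle 90%. The members' median of 0.67 lies to the right of the dashed median of all genes, 0.25. So do those of the oligosaccharyltransferase (0.61), prolyl isomerase (0.55), cytosolic and mitochondrial chaperone (0.46), calcium-binding (0.34) and translocon (0.31) genes. The other medians lie close to the dashed line or to its left.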

How the data were processed

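The values deposited by the authors, a log ratio of the 2 channels per probe and array, were read as log2 of knockdown over vector from their range, the titles and the dye labels. Base, background correction, normalization, filter and direction are not given in the sources used here, and a reversed ratio would turn every sign. Knockdown RNA carried Cy5 on every array, so dye effects are not cancelled against vector. Ratios were tested against 0, which leaves out the spread of the vector cultures if arrays shared one, and the labels do not say.

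Of 22534 probes 18129 had a single gene name, 140 several and 4265 none, from the platform annotation, and 18041 matched the GRCm38.p6 table through Entrez identifiers. A gene was the mean of its singly named probes valued on all 4 arrays. limma 3.58.1 in R 4.3.3 (lmFit, eBayes) fitted 2 construct means with a shared spread and 2 residual degrees of freedom, two-sided, with Benjamini-Hochberg adjustment over 4754 genes and a threshold of 0.05. The number of arrays limits the precision. The fit was tested on simulated data. The replicate number was not used as a block, since nothing says that it pairs the cultures.

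Members and lists were chosen with earlier results of these data known. The text names every member, up to 4 genes of each other list by the smallest unadjusted p, and the 5 genes nearest to the members' mean profile. Alternatives were a looser filter, centring alone or with scaling to a common spread, single or unnamed probes, a replicate block, each array left out and, added after seeing the data, centring with the block and genes of 1 probe. Promoter windows are from RefSeq, GRCm38.p6.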

Additional observations from a re-analysis of the deposited data

Results flagged for a closer look

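Calu, the gene of the ER calcium-binding protein calumenin, lay below 0 on both siSelT-1 arrays (-0.28 and -0.34) and above 0 on both siSelT-5 arrays (0.53 and 0.51). The difference of siSelT-1 minus siSelT-5 was -0.83 and missed the threshold (limma, adjusted p = 0.0543).

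Postn, the fibroblast marker periostin, was -0.75 and -0.82 with siSelT-1 and 1.72 and 1.55 with siSelT-5, a difference of -2.42 (limma, adjusted p = 0.0219).

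Of the 2 Canx probes, the lower one had opposite signs with the constructs, and its difference was -0.55 (limma on single probes, adjusted p = 0.155).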

How the results depend on the processing

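For both constructs together, Hspa5, P4hb, Pdia4 and Txndc5 passed under every alternative except without siSelT-1 replicate 1 (limma, adjusted p 0.0515 to 0.054) and, for Txndc5, the fit of genes with 1 probe, which does not hold it. Leaving out each array in turn gave 0 to 7 members for both constructs, 0 to 5 for siSelT-1, 4 to 6 for siSelT-5 and 0 to 4 for the difference, and 0 to 3190, 0 to 2089, 1623 to 3027 and 0 to 1796 of all genes. A construct left with 1 array is assumed to vary like the other.

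For siSelT-1 alone 2 members passed, but 0 centred, 0 with the looser filter, 0 with the replicate block, 0 centred with the block, 4 with a common spread and 1 among genes of 1 probe (limma), with 3 to 5 at an unadjusted p under 0.05 in each of these. Of all genes 650 passed for siSelT-1, but 423 centred, 1588 with a common spread, 67 with the looser filter and 35 with the replicate block. For siSelT-5 it was 2563, and 1460 with a common spread. For the difference it was 3, and 15 with a common spread, 0 with the replicate block (limma, 1674 at an unadjusted p under 0.05), 76 centred with the block and 1 among genes of 1 probe. Same-numbered arrays deviated together at a Pearson's r of 0.0758 over genes, so the numbers are not shown to pair cultures.

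Values turned sign under these settings. Centred, with or without the block, Hsp90b1 turned to -0.0457 over both constructs, -0.082 with siSelT-1 and -0.0093 with siSelT-5, and Canx to -0.101, -0.125 and -0.0772. Over both constructs Calu turned to -0.164 and Creb3l2 to -0.0262. With a common spread, Hsp90b1 turned to -0.0594, -0.106 and -0.0129, Canx to -0.12, -0.161 and -0.0797, Calu to -0.244 (limma, adjusted p = 0.0316), Creb3l2 to -0.0574 and Postn to -0.0883. On single probes, Canx turned to -0.219 and Txndc5 to -0.0012 with siSelT-1, and Calu to -0.0551, -0.107 and -0.112 over both constructs. With each array left out, the Canx value with siSelT-1 ran from -0.0014, without siSelT-1 replicate 2, to 0.0306. The difference of Pdia3 turned to -0.0367 without siSelT-1 replicate 1 and to -0.168 without siSelT-5 replicate 2, with a highest value of 0.184. Of these, Hsp90b1 with siSelT-5, Creb3l2 and Postn had passed as deposited. Centring moved the calls over both constructs to 976 higher and 1039 lower, beside 2172 and 382 as deposited. The cause was not tested. For single members, 233 recomputed values kept sign and side of the threshold, 31 kept sign and no longer passed, 21 newly passed and 23 turned sign. No scanner signal was used, so background correction could not be varied.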
